A study of Mus musculus with 22 samples.

Results

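The genes described here are those of the mouse mitochondrial genome, taken as every row of the deposited count tables whose chromosome field is MT. They number 37 of the 54532 genes in each table and comprise 13 protein genes, 2 rRNA genes and 22 tRNA genes. The samples were retina with its choroid, from control eyes and from eyes in which laser burns had induced choroidal neovascularisation (CNV), in which new choroidal vessels break through the barrier under the retina. The wild-type (WT) set held 4 control libraries without CNV and 4 libraries each at 3, 7 and 14 days after the burn, and the stated purpose was to follow natural killer (NK) cell genes in this model of macular degeneration. The Rag2 set held 3 libraries from Rag2-/-γc-/- mice (Rag2 gc KO) and 3 from Rag2-/- mice (Rag2 KO), all from eyes at day 3 after the laser, and served the question of how NK cells protect the eye. All Rag2 libraries thus share the Rag2 deletion, which removes T and B cells, and the laser. They differ by the common gamma chain Il2rg, which NK cells need to develop, and no Rag2 library came from an untreated eye. The protocol names adult C57BL/6J mice, without giving an age, a sex or the number of animals behind a library.

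Mitochondrial DNA is a small circle present in many copies per cell, and all its genes serve the respiratory chain. Its proteins are core subunits of complexes I, III and IV and of ATP synthase, its rRNAs build the mitochondrial ribosome, and its tRNAs serve that ribosome alone. Both strands are transcribed by the polymerase Polrmt into long precursors, which are cut mainly at the tRNAs, so that levels of the products depend on cutting and decay as well as on transcription. Photoreceptors hold dense stacks of mitochondria in their inner segments and account for much of the oxygen used by the retina.

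Counts summed to between 15033983 and 16848254 per WT library and between 27227847 and 30315086 per Rag2 library. The labels of control replicate 4 conflict, since its title gives it as without CNV while its treatment entry names the laser. It was kept as a control, and every comparison with control was repeated without it. The comparisons were also repeated without 3 libraries that earlier results of these data had singled out, day 3 replicate 3 (cornea and conjunctiva markers 3.27% of counts), day 7 replicate 2 (cornea and conjunctiva 2.44%, lens 0.000994%) and day 14 replicate 1 (lens markers 9.38%). Among the libraries kept in, day 7 replicate 1 had 2.78% of cornea and conjunctiva markers and 1.12% of lens markers, and day 7 replicate 4 had 0.578% and 3.08%, so at day 7 the library left out did not hold the most of either. In the Rag2 set, Rag2 itself had 1 count in gc KO replicate 2 and 0 in the other 5 libraries, and Il2rg had 0 counts in all 3 gc KO libraries, against 37, 62 and 28 in the Rag2 KO libraries. Nothing in the labels says that replicates were separate animals, so p-values measure only the spread between these samples. In bulk tissue, fewer cells of a type and less RNA per cell cannot be told apart.

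Protein genes wholly inside a stretch matched by annotated nuclear pseudogenes had lower deposited values than the other protein genes. Only annotated nuclear transcripts were searched for copies, not the whole nuclear genome. Bases 6381 to 11042 of the mitochondrial genome (mm10), from inside mt-Co1 to inside mt-Nd4, are matched by a nuclear stretch on chromosome 1, bases 24611535 to 24616197, minus strand, annotated as 7 pseudogenes. Over the 4149 bases aligned between the pseudogenes and their mitochondrial partners there were 7 mismatches. Gm28661 (copy of mt-Co2), Gm10925 (mt-Atp6), Gm28437 (mt-Co3), Gm10222 (mt-Nd4l) and Gm28439 (mt-Nd4) were 100% identical to their partners. Gm28438 (mt-Nd3) differed at T3C, and Gm29216 (mt-Co1) at T1056A, C1057T, A1059G, A1060G, C1062A and A1066T, where positions are counted from 1 at the start of the mitochondrial gene and its base is given before the copy's. These sequences are shown because a read from the identical stretches cannot be assigned to either genome. The lines give the first 60 bases of the matched part of mt-Co1 (MT:6381-6440, plus strand) and of its copy (chr1:24616138-24616197, minus strand), with the differing bases in capitals, and then 60 bases of mt-Co3 (MT:8697-8756, plus strand) and of its copy (chr1:24613822-24613881, minus strand), which do not differ.
mt-Co1: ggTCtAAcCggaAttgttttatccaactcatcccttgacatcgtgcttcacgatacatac
Gm29216: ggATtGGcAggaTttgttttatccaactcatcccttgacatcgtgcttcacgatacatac
mt-Co3: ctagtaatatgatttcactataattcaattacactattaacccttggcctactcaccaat
Gm28437: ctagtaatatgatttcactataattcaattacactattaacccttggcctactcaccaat

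Of the possible windows of 100 bases, 97.6% to 99.9% in mt-Co2, mt-Atp6, mt-Co3, mt-Nd3 and mt-Nd4l were also present in an annotated nuclear transcript. The share was 60.8% for mt-Nd4 and 30.8% for mt-Co1. Outside the block it was 3.2% for mt-Nd2, in a separate pseudogene (Gm13339), and 0 for the other protein genes and both rRNAs. Among the protein genes, the deposited values were low for those wholly inside the block and not for those partly inside it. The rRNAs, with no shared window, lay between, at 280.5 (mt-Rnr1) and 500.1 FPKM (mt-Rnr2) in controls. In control libraries the mean FPKM of the 6 protein genes inside the block lay between 3.58 and 90.2, with a median of 48.9. The 2 genes partly inside it, mt-Co1 and mt-Nd4, had 6259 and 1588 FPKM, and the 5 genes outside it lay between 1643 and 5903 FPKM, with a median of 1842. The sixth gene inside the block, mt-Atp8, has no annotated pseudogene of its own. Of its 105 windows 0 were present in an annotated nuclear transcript, yet its control mean of 3.58 FPKM was the lowest inside the block. Nuclear sequence between the annotated pseudogenes was not searched. mt-Atp8 overlaps mt-Atp6 by 43 bases on the same strand, which are in capitals in the last 52 bases of mt-Atp8 (MT:7918-7969, plus strand).
mt-Atp8: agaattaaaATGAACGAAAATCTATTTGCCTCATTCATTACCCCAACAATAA

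In the control libraries the partners had counts of the same order as the copies where the sequences were identical over the whole gene. mt-Co2 had 922 to 1043 counts against 466 to 582 for Gm28661, and mt-Atp6 had 508 to 778 counts against 522 to 1014 for Gm10925. For mt-Co1 the counts were 128799 to 172350, against 227 to 413 for Gm29216, and for mt-Nd4 they were 30290 to 38077, against 135 to 198 for Gm28439. The sources used here do not give the aligner or its treatment of reads with several matches, and the part of multiple mapping in these levels was not tested. Values below for mt-Co2, mt-Atp6, mt-Co3, mt-Nd3 and mt-Nd4l are uncertain for this reason, and those of mt-Nd4 and mt-Co1 in part. The log2 fold changes of the 7 copies against control had medians of 0.26, 0.55 and 0.42 at days 3, 7 and 14. None of the 7 was called at day 3 or day 14 against control, and 2 were higher at day 7, Gm28437 with a log2 fold change of 1.02 ± 0.24 (SE; adjusted p = 0.0214) and Gm28438 with 0.58 ± 0.17 (SE; adjusted p = 0.0436) in edgeR's quasi-likelihood test with Benjamini-Hochberg adjustment.

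The protein genes outside the block or only partly inside it were among the most abundant transcripts of the tissue. By mean FPKM over the control libraries, mt-Co1, the catalytic subunit of complex IV, ranked 1 of all genes at 6259 ± 694 FPKM. mt-Cytb, the cytochrome b of complex III, ranked 2 at 5903 ± 463 FPKM, and these neighbours did not differ beyond their spread. mt-Nd1 followed at rank 4 with 4172 ± 285 FPKM (SD, n = 4 for each of these). The complex I genes mt-Nd2, mt-Nd6, mt-Nd5 and mt-Nd4 took ranks 6, 8, 9 and 10 with means between 1588 and 1842 FPKM, and of these only mt-Nd2, at 1803 to 1881 FPKM over the controls, lay clear of mt-Nd6 (1558 to 1722 FPKM) and mt-Nd4 (1397 to 1682 FPKM), while mt-Nd5 (1424 to 1838 FPKM) overlapped all of them. mt-Co1, mt-Cytb and mt-Nd1, the marker genes of the set, were thus all present at high levels. The rRNAs were lower per base, with 500.1 ± 24.5 FPKM for mt-Rnr2 and 281 ± 14.8 FPKM for mt-Rnr1 (SD, n = 4). Whether libraries were made by poly(A) selection or rRNA removal is not given in the sources used here. Of the tRNAs, mt-Tp (tRNA for proline) reached 181 ± 18.8 FPKM and mt-Tc (cysteine) 75.2 ± 14.9 FPKM (SD, n = 4), while mt-Tf and mt-Td had 0 counts in all 22 libraries.

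**Figure D1:**
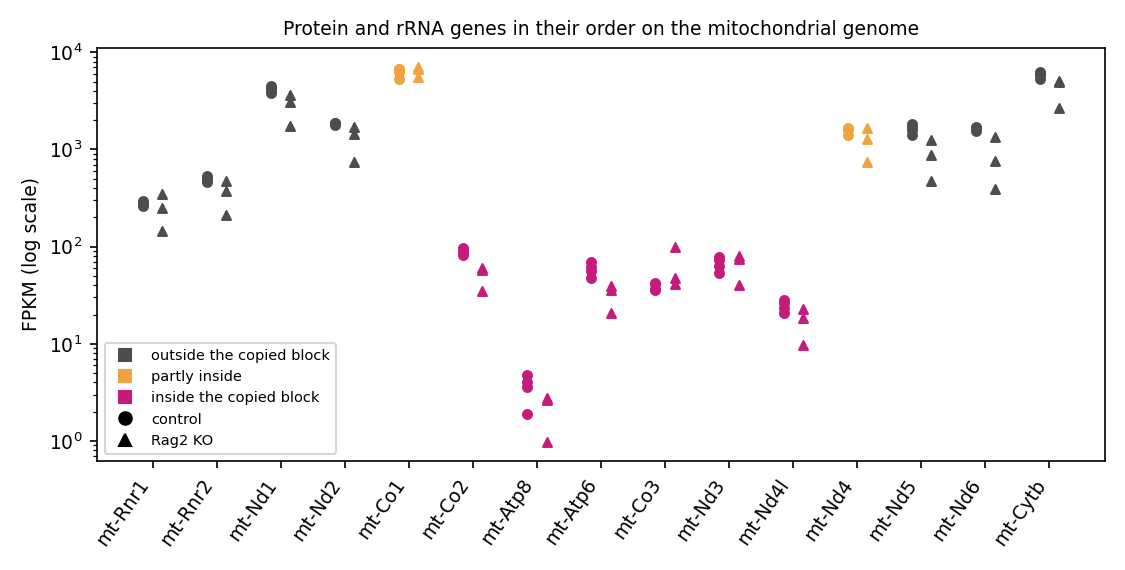
FPKM of each protein and rRNA gene on a log axis, in gene order along the mitochondrial genome, with each control library as a circle and each Rag2 KO library as a triangle, coloured by whether the gene lies in the block copied on chromosome 1. In controls the gene means inside the block lie between 3.58 and 90.2 FPKM and those of protein genes outside it between 1643 and 5903 FPKM, and the Rag2 KO libraries, normalised separately, show the same layout.

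Mitochondrial genes took a larger share of all counts after the laser. The share was 3.22%, 2.95%, 3.11% and 2.76% in the control libraries, 3.81%, 3.48%, 3.09% and 4.07% at day 3, 3.75%, 4.46%, 3.87% and 4.17% at day 7, and 3.82%, 4.27%, 4.10% and 4.12% at day 14. Of the 12 laser libraries, 11 lay above every control, and the exception was day 3 replicate 3. The 95% Wilson interval of a library spanned about 3.21% to 3.23% for control replicate 1, which covers counting error only. Within the mitochondrial counts, complex I subunits held 40.5% in controls on average and 39.7%, 40.2% and 39.9% at days 3, 7 and 14, and complex III, through mt-Cytb alone, held 22.8% in controls and 22.4%, 23.8% and 23.1% at those days. Complex IV held 32.9% in controls and 33.8%, 32.4% and 33.3% at those days, with single libraries between 28.2% and 36.2% at day 14, against 31.4% to 33.6% in controls. The ATP synthase genes held 0.137% in controls and 0.148%, 0.221% and 0.131%, with a range of 0.118% to 0.362% at day 7, against 0.124% to 0.152% in controls. The rRNAs held 1.96% to 4.45% across the laser libraries, against 3.41% to 3.76% in controls.

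**Figure D2:**
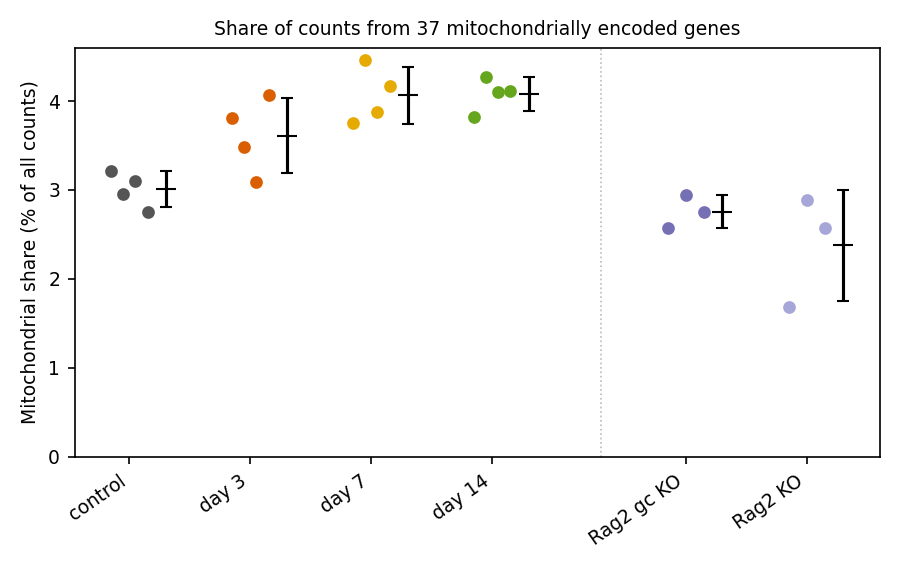
Mitochondrial genes as a percent of all counts in each library (points), with the group mean and SD (bars), for control, day 3, day 7 and day 14 of the WT set and for Rag2 gc KO and Rag2 KO of the separate Rag2 set. All laser WT libraries except day 3 replicate 3 (3.09%) lie above the highest control (3.22%), and Rag2 KO replicate 1 (1.68%) lies below the other Rag2 libraries.

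In the test across all genes, 27 of the 37 members had enough counts in the WT set, all 13 protein genes, both rRNAs and 12 tRNAs. At day 3 against control 4 of the 27 were higher and 0 lower at an adjusted p under 0.05, namely mt-Rnr1, mt-Co3, mt-Tc and mt-Tp. Over all 18657 genes tested, 6.97% were higher and 7.77% lower. The median log2 fold change of the tested members was 0.35, against 0.01 over all genes, and 24 of the 27 values were above 0. At day 7 against control 6 were higher and 0 lower, namely mt-Atp6, mt-Co2, mt-Co3, mt-Nd4, mt-Nd6 and mt-Tp, where 3.62% of all genes were higher and 6.9% lower. The median of the members was 0.48, against 0.03 over all genes. At day 14 against control none was called, where 0.0322% of all genes were higher and 0.241% lower. The members' median was 0.47 at day 14, against 0.04 over all genes, and 11 of the 27 had an unadjusted p under 0.05.

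These 3 comparisons share the same control libraries. Between the laser days themselves none of the 27 was called, with 0.0% of all genes called for day 7 against day 3, 0.00536% for day 14 against day 3 and 0.0% for day 14 against day 7. At an unadjusted p under 0.05 there were 3, 0 and 1 members in those comparisons by edgeR's quasi-likelihood test, and neither DESeq2 nor limma voom called any. Groups of CPM values did not overlap, with all laser libraries higher, for 10 of the 37 members at day 3, 13 at day 7 and 9 at day 14. For 1 further member, the untested mt-Ti with 0 to 1 counts at day 14, all day 14 libraries lay below the controls. How many of all genes did not overlap was not counted, so these numbers give no result about the members as a set. When a library of the compared groups was left out, 2 members were called at day 3 without day 3 replicate 2 and 1 without any other. At day 7 the count was 0 without control replicate 2, 3 or 4, 1 without control replicate 1 or day 7 replicate 2, 2 without day 7 replicate 1, 5 without day 7 replicate 3 and 6 without day 7 replicate 4. At day 14 mt-Rnr1 was called without day 14 replicate 1 and without day 14 replicate 4. Without the 3 singled-out libraries together, 9, 8 and 7 members were called at days 3, 7 and 14. The share of all genes called in these fits with libraries left out is not given here. The counts show only how far the calls depended on single libraries.

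**Figure D3:**
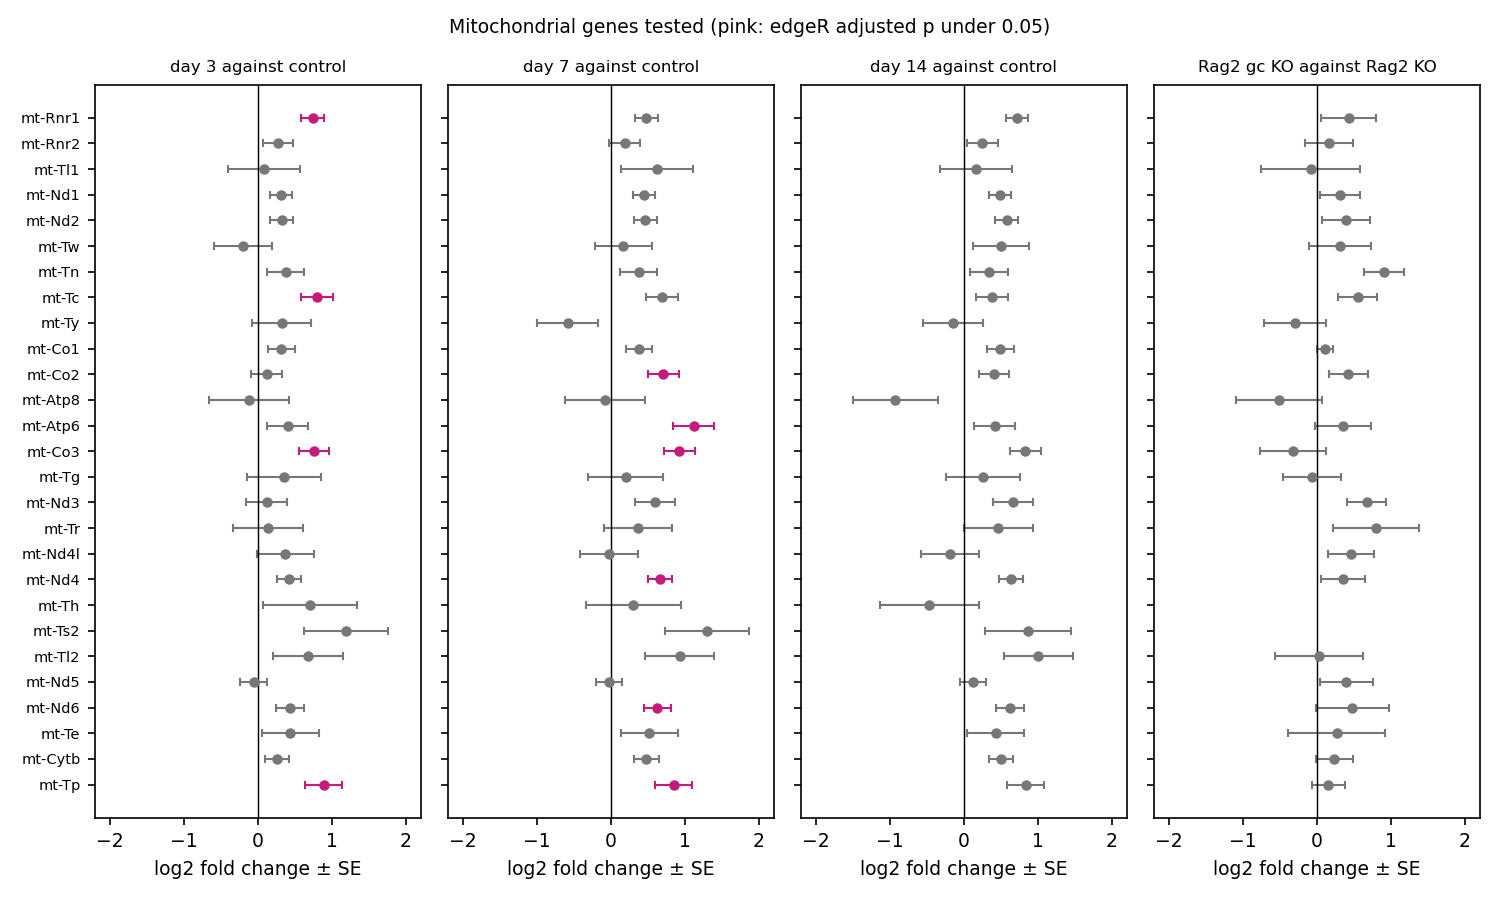
Log2 fold change of each tested mitochondrial gene, in gene order. The comparisons are day 3, day 7 and day 14 against control and Rag2 gc KO against Rag2 KO. Bars give an SE derived from edgeR's fold change and test statistic. Pink points passed an adjusted p under 0.05, which 4 members did at day 3, 6 at day 7, 0 at day 14 and 0 in the Rag2 comparison, and mt-Nd5 stays near 0 at all 3 days.

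mt-Rnr1, the 12S rRNA of the small mitochondrial ribosomal subunit (MT:70-1024, plus strand), was the only member whose call at day 3 held without any single library. It had 289, 266, 269 and 256 CPM in the control libraries, 447, 380, 433 and 548 CPM at day 3, 425, 398, 336 and 351 CPM at day 7, and 353, 486, 547 and 394 CPM at day 14. Every laser library lay above every control. The log2 fold change was 0.74 ± 0.15 at day 3 (SE; adjusted p = 0.0132, edgeR's quasi-likelihood test with Benjamini-Hochberg adjustment, as for all adjusted p-values below). Without any single library its adjusted p at day 3 ran between 0.0153 and 0.0466, with log2 fold changes of 0.64 to 0.82. At day 7 it was 0.48 ± 0.15 (SE; adjusted p = 0.0523) and at day 14 0.72 ± 0.15 (SE; adjusted p = 0.0531), neither of which passed. mt-Rnr2, the 16S rRNA of the large subunit (MT:1094-2675, plus strand), had 848, 796, 793 and 757 CPM in controls, 874, 821, 897 and 1268 CPM at day 3, 957, 901, 921 and 863 CPM at day 7, and 525, 1184, 1038 and 1054 CPM at day 14. Its log2 fold changes of 0.27, 0.19 and 0.25 did not pass (adjusted p = 0.341, 0.54 and 0.448).

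The balance of the rRNAs differed between libraries. The ratio of mt-Rnr1 to mt-Rnr2 counts was 0.341, 0.335, 0.340 and 0.338 in controls, 0.511, 0.463, 0.483 and 0.432 at day 3, 0.444, 0.442, 0.365 and 0.407 at day 7, and 0.673, 0.411, 0.527 and 0.374 at day 14. All 12 laser libraries lay above every control, and the control values were much closer to each other than those of any laser group. The Rag2 libraries, all lasered, had ratios of 0.488, 0.538 and 0.501 in gc KO and 0.418, 0.446 and 0.407 in Rag2 KO. Both rRNA genes lie on the same strand with 1 tRNA gene between them. This ratio was chosen after the values had been seen, and no test was made of it.

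**Figure D4:**
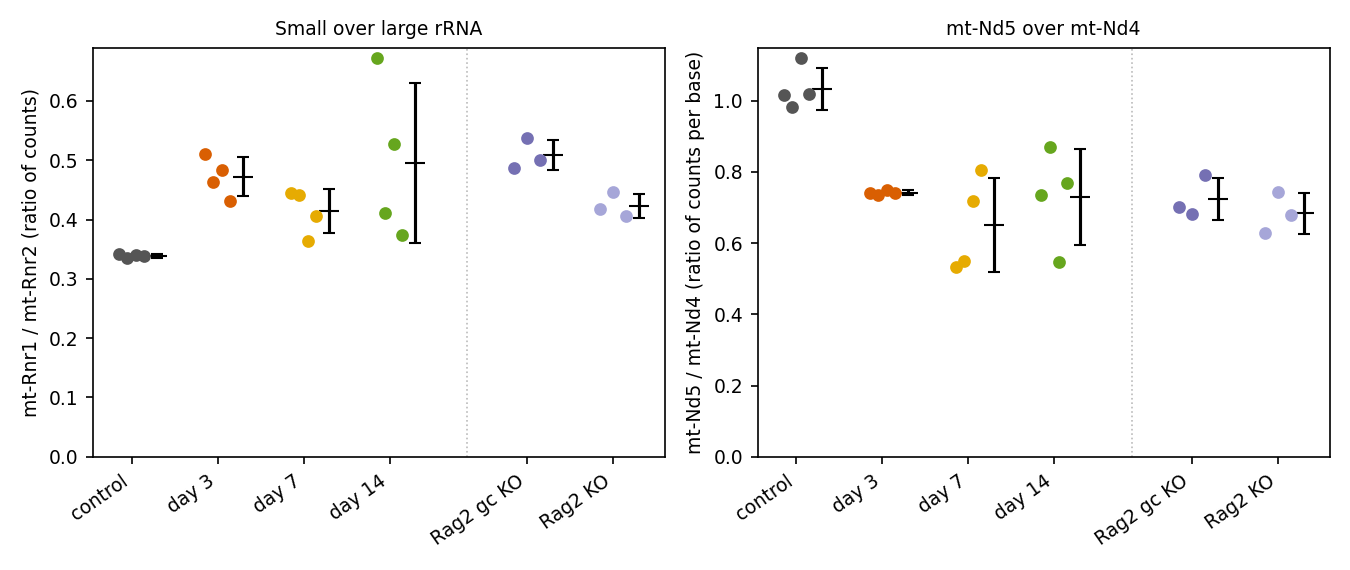
The ratio of mt-Rnr1 to mt-Rnr2 counts and the ratio of mt-Nd5 to mt-Nd4 counts per base in each library (points), by group, with the group mean and SD (bars). All 12 laser WT libraries lie above the highest control (0.341) in the rRNA ratio and below the lowest control (0.982) in the mt-Nd5 to mt-Nd4 ratio.

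Complex I, which takes electrons from NADH, has 7 subunits encoded in mitochondrial DNA. mt-Nd1 (MT:2751-3707, plus strand), which helps form the ubiquinone site, had 4386, 3922, 4061 and 3754 CPM in controls, 5133, 4662, 4610 and 5614 CPM at day 3, 5333, 6381, 5208 and 5139 CPM at day 7, and 5663, 5362, 6091 and 5412 CPM at day 14. The laser libraries all lay above the controls, and the log2 fold changes of 0.31, 0.45 and 0.48 had adjusted p-values of 0.139, 0.0624 and 0.0948. mt-Nd2 (MT:3914-4951, plus strand), a membrane subunit, had between 2140 and 3400 CPM in the laser libraries, against 1984, 1877, 1918 and 1944 CPM in controls, with no overlap. Its log2 fold changes were 0.32, 0.47 and 0.58, with adjusted p-values of 0.141, 0.0636 and 0.0763.

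mt-Nd4 (MT:10167-11544, plus strand), a proton-pumping membrane subunit, had 2355, 2256, 2254 and 1969 CPM in controls, 3091, 2817, 2530 and 3401 CPM at day 3, 3235, 4401, 3176 and 3158 CPM at day 7, and 3850, 3240, 3451 and 3138 CPM at day 14. The groups did not overlap on any day. It rose at day 7 by a log2 fold change of 0.66 ± 0.16 (SE; adjusted p = 0.0254), a call that was lost without any control replicate (adjusted p between 0.0561 and 0.0767) and without day 7 replicate 1 (0.0648) or 2 (0.0855). Over the 8 fits that left out a library, its log2 fold change stayed between 0.56 and 0.71. At day 3 the value was 0.42 (adjusted p = 0.0794) and at day 14 0.63 (adjusted p = 0.0713). mt-Nd6 (MT:13552-14070, minus strand) is the only protein gene on the light strand, so without a stated strand setting its reads cannot be told from antisense reads of the other strand. It had 883, 865, 890 and 827 CPM in controls, 1150, 1028, 1067 and 1435 CPM at day 3, 1518, 1584, 1075 and 1182 CPM at day 7, and 1300, 1181, 1809 and 1045 CPM at day 14, again with no overlap. Its rise at day 7 was 0.63 ± 0.19 (log2, SE; adjusted p = 0.0449), and it too was lost without any control replicate (adjusted p between 0.0848 and 0.105) and without day 7 replicate 1 (0.13) or 2 (0.127), with log2 fold changes of 0.56 to 0.72 over the 8 fits.

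mt-Nd5 (MT:11742-13565, plus strand), another proton-pumping subunit of complex I and the gene next to mt-Nd6, stood apart from its neighbours. It had 3163, 2931, 3339 and 2658 CPM in controls, 3036, 2737, 2510 and 3338 CPM at day 3, 2283, 3195, 3020 and 3365 CPM at day 7, and 3742, 3734, 2501 and 3194 CPM at day 14. The groups overlapped on every day, and the log2 fold changes were -0.06 ± 0.18, -0.03 ± 0.18 and 0.12 ± 0.18 (SE; adjusted p = 0.832, 0.929 and 0.673). Set against mt-Nd4 per base, mt-Nd5 stood at 1.015, 0.982, 1.119 and 1.02 in controls, 0.742, 0.734, 0.750 and 0.741 at day 3, 0.533, 0.549, 0.718 and 0.805 at day 7, and 0.734, 0.871, 0.548 and 0.769 at day 14. All 12 laser libraries lay below every control. The same held for its share of mitochondrial counts, 6.19% to 8.99% in the laser libraries against 9.84% to 10.7% in the controls. The Rag2 libraries stood at 0.701, 0.681 and 0.790 (gc KO) and 0.629, 0.744 and 0.680 (Rag2 KO). These ratios were also chosen after the values had been seen. mt-Nd4 lies partly in the copied block, mt-Nd5 outside it.

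The other complex I members lie inside the block. mt-Nd3 (MT:9459-9806, plus strand) had 25.7, 18.9, 21.9 and 27.6 CPM in controls, 24.6, 19.4, 29.1 and 29.2 CPM at day 3, 31.1, 39.8, 36.1 and 35.7 CPM at day 7, and 19.2, 31.2, 65.4 and 33.4 CPM at day 14. Only the day 7 libraries all lay above the controls, and no value passed (log2 fold changes 0.12, 0.60 and 0.67, adjusted p = 0.767, 0.146 and 0.162). mt-Nd4l (MT:9877-10173, plus strand) had 59 to 280 counts in the laser libraries, against 96 to 137 in controls, with overlap on every day and log2 fold changes of 0.37, -0.03 and -0.18 (adjusted p = 0.493, 0.968 and 0.782).

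mt-Cytb (MT:14145-15288, plus strand), which carries the quinol sites of complex III, had 7380, 6641, 7035 and 6207 CPM in controls, 8501, 7939, 7151 and 9096 CPM at day 3, 8554, 11370, 9280 and 8869 CPM at day 7, and 10280, 9567, 9588 and 9082 CPM at day 14. Only day 3 replicate 3 fell within the control range. The log2 fold changes were 0.26 ± 0.16, 0.48 ± 0.17 and 0.50 ± 0.17 (SE; adjusted p = 0.248, 0.0692 and 0.106).

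Complex IV hands electrons to oxygen through mt-Co1 and mt-Co2, and mt-Co3 completes its core. mt-Co1 (MT:5328-6872, plus strand) had 10660, 9619, 10370 and 8372 CPM in controls, 12650, 11790, 11220 and 13050 CPM at day 3, 11640, 14040, 11980 and 13220 CPM at day 7, and 16070, 13720, 11080 and 14100 CPM at day 14. All laser libraries lay above all controls, but the log2 fold changes of 0.32, 0.38 and 0.49 did not pass (adjusted p = 0.197, 0.153 and 0.126). mt-Co2 (MT:7013-7696, plus strand) had 57.0, 64.2, 60.2 and 67.8 CPM in controls, 70.2, 62.0, 67.0 and 71.4 CPM at day 3, 99.5, 134, 68.0 and 107 CPM at day 7, and 99.7, 62.4, 110 and 58.8 CPM at day 14. It rose at day 7 by 0.71 ± 0.21 (log2, SE; adjusted p = 0.0431), and this was lost without each of the compared libraries (adjusted p between 0.0544 and 0.128) except day 7 replicate 3 (0.0263), with log2 fold changes of 0.58 to 0.86 over the 8 fits.

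mt-Co3 (MT:8607-9390, plus strand) had 33.9, 28.7, 32.5 and 28.5 CPM in controls, 53.5, 56.3, 48.9 and 50.8 CPM at day 3, 49.5, 96.0, 41.4 and 47.5 CPM at day 7, and 58.8, 49.8, 64.2 and 46.7 CPM at day 14. No laser library overlapped the controls, and it was the only protein gene called on more than 1 day, with log2 fold changes of 0.76 ± 0.21 at day 3 (SE; adjusted p = 0.0318), 0.92 ± 0.21 at day 7 (SE; adjusted p = 0.0207) and 0.83 ± 0.21 at day 14 (SE; adjusted p = 0.0699, not called). The day 3 call was lost without any single library (adjusted p between 0.0515 and 0.0821), while the log2 fold change stayed between 0.72 and 0.81. The day 7 call was lost without control replicate 2 (0.06), 3 (0.0658) or 4 (0.055), and without day 7 replicate 2 it was kept at a log2 fold change of 0.61 (adjusted p = 0.0386). Its identical copy Gm28437 was also higher at day 7, as given above.

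ATP synthase takes its proton-channel subunit a from mt-Atp6 and the small subunit from mt-Atp8. mt-Atp6 (MT:7927-8607, plus strand) had 48.1, 42.2, 38.1 and 33.0 CPM in controls, 55.8, 49.4, 43.7 and 64.9 CPM at day 3, 43.3, 113, 135 and 59.8 CPM at day 7, and 55.4, 43.8, 58.8 and 58.0 CPM at day 14. Day 7 replicate 1 fell within the control range, and the other day 7 libraries lay above it. The log2 fold change at day 7 was 1.12 ± 0.28 (SE; adjusted p = 0.0273), which was lost without any control replicate (adjusted p between 0.0503 and 0.0844) and without day 7 replicate 2 (0.0867) or 3 (0.0551), with log2 fold changes of 0.83 to 1.35 over the 8 fits. At days 3 and 14 the values were 0.40 and 0.42 (adjusted p = 0.286 and 0.344). mt-Atp8 (MT:7766-7969, plus strand) had 1 to 19 counts in the laser libraries, against 6 to 15 in controls, and its log2 fold changes of -0.11, -0.08 and -0.93 did not pass (adjusted p = 0.891, 0.933 and 0.317).

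Among the tRNAs, mt-Tp and mt-Tc rose. Mature tRNAs are short and heavily modified, and standard RNA libraries recover them poorly. Both genes are on the light strand, and their reads cannot be told from antisense reads here. They are shown 5′ to 3′ on their own strand with the anticodon in capitals, mt-Tp at MT:15356-15422 (minus strand), the last gene before the control region, and mt-Tc at MT:5192-5257 (minus strand).
mt-Tp: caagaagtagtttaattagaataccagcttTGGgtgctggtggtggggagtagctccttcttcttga
mt-Tc: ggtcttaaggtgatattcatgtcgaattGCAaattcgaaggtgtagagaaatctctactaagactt

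mt-Tp had 12, 10.6, 12.5 and 13.8 CPM in controls, 23.1, 26, 21.2 and 20.3 CPM at day 3, 19.2, 32.6, 11.4 and 24.9 CPM at day 7, and 15.7, 21.2, 28.2 and 22.3 CPM at day 14. Only day 7 replicate 3 fell within the control range. The log2 fold changes were 0.89 ± 0.25 at day 3 (SE; adjusted p = 0.0343), 0.85 ± 0.25 at day 7 (SE; adjusted p = 0.0449) and 0.84 ± 0.25 at day 14 (SE; adjusted p = 0.0883, not called). Its day 3 call was lost without any single library (adjusted p between 0.0547 and 0.0883; log2 fold change 0.82 to 0.96), and its day 7 call without any single library (between 0.065 and 0.142) except day 7 replicate 3 (0.018), at log2 fold changes of 0.63 to 1.06 over the 8 fits. mt-Tc had 4.64, 5.25, 6.16 and 3.97 CPM in controls, 8.51, 7.55, 8.01 and 10.7 CPM at day 3, 9.93, 9.21, 6.63 and 6.69 CPM at day 7, and 8.23, 4.57, 7.19 and 6.10 CPM at day 14. The groups did not overlap at days 3 and 7. The rise at day 3 was 0.80 ± 0.22 (log2, SE; adjusted p = 0.0315), lost without any single library (adjusted p between 0.0554 and 0.0871) except day 3 replicate 2 (0.0373), at log2 fold changes of 0.68 to 0.94, and at day 7 the value was 0.70 (adjusted p = 0.0528). The other tested tRNAs were mt-Tl1, mt-Tw, mt-Tn, mt-Ty, mt-Tg, mt-Tr, mt-Th, mt-Ts2, mt-Tl2 and mt-Te. Their means were at most 7.21 CPM in any WT group, and none passed on any day. The remaining 10 tRNAs were under the filter on low counts.

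In the Rag2 set the mitochondrial share was 2.58%, 2.94% and 2.75% in gc KO and 1.68%, 2.89% and 2.57% in Rag2 KO. The groups overlapped, and Rag2 KO replicate 1 was low. Of 26 tested members none was called, where 0.465% of all 18923 genes were called in either direction. The members' median log2 fold change was 0.31, against 0.00 over all genes, and without Rag2 KO replicate 1 it was 0.03. mt-Nd1 shows the pattern, with 3272, 3513 and 3385 CPM in gc KO against 1658, 3531 and 2993 CPM in Rag2 KO. mt-Cytb had 5376, 6191 and 5461 CPM in gc KO against 3037, 5822 and 5637 CPM in Rag2 KO. In that low library mt-Co1 had 8651 CPM, closer to the 11090 and 10510 CPM of the other Rag2 KO libraries than mt-Nd1 or mt-Cytb were, and it held 51.4% of the mitochondrial counts there against 38.4% and 41.4%.

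2 members had an unadjusted p under 0.05 between the Rag2 groups by edgeR's quasi-likelihood test. mt-Tn (tRNA for asparagine) had 5.18, 5.15 and 4.71 CPM in gc KO against 2.01, 3.85 and 2.18 CPM in Rag2 KO, with no overlap and a log2 fold change of 0.90 (adjusted p = 0.198). mt-Nd3 had 31.5, 38.9 and 37.7 CPM in gc KO against 14.0, 27.9 and 25.9 CPM in Rag2 KO, with a log2 fold change of 0.67 (adjusted p = 0.323), and DESeq2 called it as its single member. mt-Rnr1 had 261, 399 and 303 CPM in gc KO against 140, 337 and 240 CPM in Rag2 KO, with overlap (log2 fold change 0.43, adjusted p = 0.647). For the other protein genes the adjusted p-values lay between 0.52 and 0.792. The WT and Rag2 tables were normalised separately and come from different strains, which cannot be told apart, so no level was compared across them.

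Nuclear genes of the same machinery were read from the same tests. Of the 78 tested nuclear subunits of complexes I to V, 2 were higher and 1 lower at day 3, 13 higher at day 7 and 0 called at day 14, with medians of 0.27, 0.34 and 0.31 on the log2 scale, against 0.01, 0.03 and 0.04 over all genes. The background was 6.97% of all genes higher and 7.77% lower at day 3, and 3.62% higher at day 7. In the settings other than leaving out 1 library, the list had 0 to 44 calls at day 3, 4 to 36 at day 7 and 0 to 11 at day 14. For other settings and fits with a library left out, here and for the lists below, the share of all genes called is not given. Such counts show only how far the calls depended on the fit. Ndufa3, an accessory subunit of complex I, averaged 57.7 ± 4.5 CPM at day 3 and 38.6 ± 2.3 CPM in controls (SD, n = 4 each; log2 fold change 0.58, adjusted p = 0.0154). At day 7 the calls fell on complex I (6), complex III (1), complex IV (1) and ATP synthase (5). Ndufa7 averaged 86.2 ± 9.5 CPM at day 7 and 59.3 ± 2.0 CPM in controls (SD, n = 4 each; log2 fold change 0.54, adjusted p = 0.0171), Atp5g2, a proton-ring subunit of ATP synthase, had a log2 fold change of 0.57 (adjusted p = 0.0293), and Cox6c of complex IV had 0.42 (adjusted p = 0.0464). Sdha, the flavin subunit of the wholly nuclear complex II, was lower at day 3 with 267 ± 7.6 CPM and 337 ± 17.1 CPM in controls (SD, n = 4 each; log2 fold change -0.34, adjusted p = 0.0402). When 1 library of the compared groups was left out, this list had 2 calls at day 3 without day 3 replicate 2, 0 without control replicate 3 and 1 without any other. At day 7 it had 0 calls without control replicate 2 or 3 or day 7 replicate 2, 1 without control replicate 1 or 4 or day 7 replicate 1, 4 without day 7 replicate 3 and 32 without day 7 replicate 4.

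Of 77 tested proteins of the mitochondrial ribosome, 8 were higher at day 3, 11 at day 7 and 0 at day 14, with none lower and medians of 0.24, 0.30 and 0.24, beside the same background of 6.97% higher at day 3 and 3.62% at day 7. The other settings gave 3 to 35 calls at day 3, 3 to 32 at day 7 and 0 to 10 at day 14. Mrps27, of the small subunit, averaged 19.6 ± 1.5 CPM at day 3, 19.7 ± 2.3 CPM at day 7 and 13.5 ± 1.5 CPM in controls (SD, n = 4 each), with log2 fold changes of 0.54 on both days (adjusted p = 0.0219 and 0.0224). When 1 library was left out, this list had 9 calls at day 3 without day 3 replicate 2 and 0 to 3 without any other, and at day 7 it had 22 calls without day 7 replicate 4, 5 without day 7 replicate 3 and 0 to 2 without any other. The mitochondrial transcription list of 10 genes had no call on any day, and its medians were 0.13, 0.14 and 0.09. Polrmt had log2 fold changes of -0.05 at day 3 and 0.05 at day 7 (adjusted p = 0.766 and 0.77), and Tfam, which packages mitochondrial DNA and starts its transcription, had 0.19 and 0.12 (adjusted p = 0.191 and 0.438).

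Of 9 regulators of mitochondrial biogenesis 3 were lower and 0 higher at day 3, with a list median of -0.18, where 7.77% of all genes were lower. Ppargc1a, a coactivator of mitochondrial biogenesis, averaged 25.7 ± 3.9 CPM at day 3 and 48.1 ± 3.5 CPM in controls (SD, n = 4 each; log2 fold change -0.90, adjusted p = 0.0312). Its relative Ppargc1b averaged 25.9 ± 3.5 CPM at day 3 and 47.5 ± 1.4 CPM in controls (SD, n = 4 each; -0.87, adjusted p = 0.00782), and the nuclear receptor Esrrg 39.7 ± 8.2 CPM and 81.0 ± 4.4 CPM (SD, n = 4 each; -1.03, adjusted p = 0.0308). None of the 9 was called at day 7 or day 14, where the list medians were -0.20 and -0.27. At day 7 the list had 0 to 3 calls when a library was left out and 0 to 4 in other settings. When a library was left out, 3 of them were called at day 3 without day 3 replicate 2 and 1 without any other, and other settings gave 0 to 4, with 0 when lens and cornea marker scores were covariates.

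In the stress response list 5 of 17 tested genes were higher at day 3 and none lower, where 6.97% of all genes were higher, and none was called at days 7 and 14. Atf5, a transcription factor of the mitochondrial unfolded protein response, averaged 48.1 ± 6.1 CPM at day 3 and 21.7 ± 2.3 CPM in controls (SD, n = 4 each; log2 fold change 1.15, adjusted p = 0.013). Shmt2, an enzyme of mitochondrial folate metabolism, had a log2 fold change of 0.67 (adjusted p = 0.0243), and Hspe1, a chaperonin, 0.57 (adjusted p = 0.0264). The 5 calls became 4 without day 3 replicate 1 or 2, 3 without day 3 replicate 4, 2 without control replicate 4 and 1 without any other library, and other settings gave 2 to 9. Among 20 genes of mitochondrial RNA processing and stability, 1 was higher and 1 lower at day 3. This was no larger a share than over all genes, of which 6.97% were higher and 7.77% lower. Hsd17b10, a subunit of the mitochondrial RNase P that cuts tRNAs from the precursor, was higher with 34.3 ± 4.0 CPM and 17.2 ± 2.3 CPM in controls (SD, n = 4 each; log2 fold change 0.99, adjusted p = 0.0328). Lrpprc, which stabilises mitochondrial mRNAs, was lower with 69.4 ± 7.3 CPM and 106 ± 5.1 CPM in controls (SD, n = 4 each; -0.61, adjusted p = 0.037). The 17 mitochondrial aminoacyl-tRNA synthetases had no call on any day. In the Rag2 comparison none of these lists had a call by edgeR's quasi-likelihood test.

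**Figure D5:**
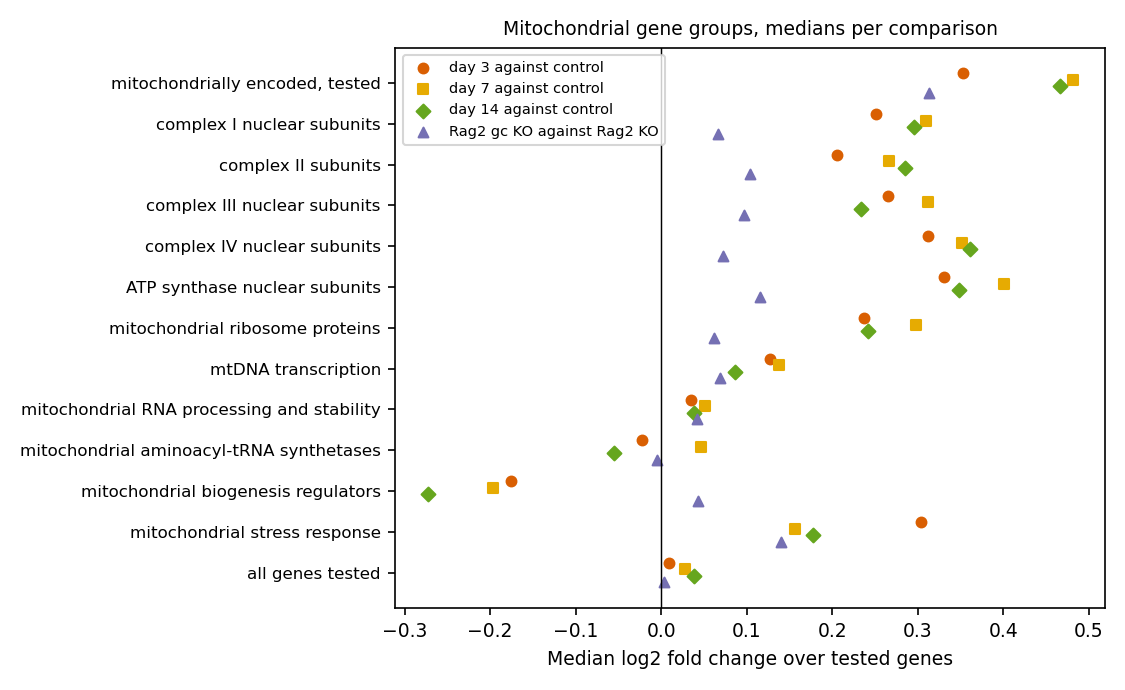
Median log2 fold change of the mitochondrial genes and of nuclear gene lists of the same machinery at day 3, day 7 and day 14 against control and in Rag2 gc KO against Rag2 KO, with all tested genes in the bottom line. The mitochondrial genes have medians of 0.35, 0.48 and 0.47 against control, and the biogenesis regulators -0.18, -0.20 and -0.27.

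Markers of other cell types moved with the laser groups. The 18 rod markers, summed, held 3.22% to 5.34% of counts at day 3, 4.22% to 7.36% at day 7 and 1.57% to 6.89% at day 14, against 7.04% to 7.77% in controls, and no rod marker was at 0 in any group. The 18 lens markers held 2.23% to 4.18% at day 3, 0.000994% to 3.08% at day 7 and 0.0544% to 9.38% at day 14, against 0.0142% to 1.03% in controls, where Cryga was at 0. The 14 microglia and macrophage markers held 0.0159% to 0.0445% over the laser libraries, against 0.00877% to 0.0126% in controls. For the 13 cornea and conjunctiva markers the shares were 0.493% to 3.27%, 0.578% to 2.78% and 0.612% to 1.74% at days 3, 7 and 14, against 0.266% to 0.826% in controls, where Sprr1b was at 0. The 10 markers of the retinal pigment epithelium held 0.159% to 0.32% over the laser libraries, against 0.259% to 0.359% in controls. The 15 skeletal muscle markers held 0.0266% to 0.138% over the laser libraries, against 0.0247% to 0.0692% in controls, and the 8 Müller glia markers 0.46% to 0.849%, against 0.491% to 0.542% in controls. Between the Rag2 groups the microglia and macrophage markers held 0.0364% to 0.0787% in gc KO and 0.0253% to 0.0335% in Rag2 KO. The skeletal muscle markers held 0.0117% to 0.0632% in gc KO and 0.00775% to 0.0149% in Rag2 KO, with overlap. The ranges of the other marker lists overlapped as well. The part of these shifts in the results for the mitochondrial genes was not tested, beyond the fits with lens and cornea scores as covariates, which called 3, 7 and 2 members at days 3, 7 and 14. The share of all genes called in those covariate fits is not given here.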

How the data were processed

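RNA sequencing of 22 libraries was deposited as 1 table of 16 WT libraries and 1 of 6 Rag2 libraries. The deposited counts are raw counts per gene, made with featureCounts 1.5.0-p3 on mm10, per the submitters' processing notes. The authors also deposited FPKM, which scale these counts by gene length and depth, and the gene length, a value (score) per gene. The authors' deposited comparisons, a mean signal per group with log2 fold changes and p-values, were not used. The sources used here do not name the aligner, annotation release, strand setting or library type. Gene models of all members have the start and end of GENCODE M21, as do 98.26% of all genes.

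Genes were kept by filterByExpr (minimum count 10, minimum total 15), leaving 18657 WT and 18923 Rag2 genes. Libraries were scaled by TMM, and group means were fitted with edgeR 4.0.16 (quasi-likelihood, robust; limma 3.58.1, R 4.3.3) over all 16 WT libraries or the 6 Rag2 libraries, with Benjamini-Hochberg adjustment over all genes tested and calls at an adjusted p under 0.05. CPM use the same scaling. Each SE of a log2 fold change was derived from the edgeR results, as its absolute value divided by the square root of the quasi-likelihood F statistic. The test was also run on simulated counts with known changes and the same spread set for every gene. That checked whether known changes were recovered, not how the test behaves with the spread of these libraries. Copies on chromosome 1 were found by matching transcripts with shared stretches of 30 bases, covering at least 90% of the pseudogene, and shared windows have 100 bases. These copies were chosen after the data were seen, because 3 of the 9 symbols first listed shared no sequence with the mitochondrial genome. Sequences were read from the GENCODE M21 transcripts, on mm10.

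All members are accounted for. Protein and rRNA genes and tested tRNAs are named, and of each nuclear list genes among the 3 with the smallest p per comparison, with Ppargc1a, Polrmt and Tfam, the nuclear copies, Rag2 and Il2rg. Members and lists were chosen with earlier results of these data known. Alternatives were other scalings, no filter, DESeq2 1.42.0, limma voom, only the compared groups, a replicate block, libraries left out and marker scores as covariates. Intervals of shares cover counting error only. Replicates of a group differed by more than sampling noise in all 30 pairs.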

Additional observations from a re-analysis of the deposited data

Results flagged for a closer look

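In groups of 4 libraries, 72 sets of values (the protein and rRNA genes, mt-Tc, mt-Tp and the mitochondrial share, in each WT group) were searched for a library far from the others, and 4 were found. Chance alone picks out about 1 in 20 such sets, which is about as many as were found. The sets reuse the same libraries and are not independent, and 3 of the 4 came from day 7 replicate 2. The rate of 1 in 20 therefore does not tell how often chance would flag several genes in 1 library. At day 3, mt-Rnr2 had 1268 CPM in replicate 4, against 821 to 897 CPM in the other day 3 libraries. At day 7, replicate 2 was far above the other libraries for 3 genes. It had 6381 CPM of mt-Nd1, where the others had 5139 to 5333 CPM, 96.0 CPM of mt-Co3, where the others had 41.4 to 49.5 CPM, and 4401 CPM of mt-Nd4, where the others had 3158 to 3235 CPM. That library also had the highest mitochondrial share of all, 4.46%, with cornea and conjunctiva markers at 2.44% and lens markers at 0.000994% of its counts. The part of these markers in its values was not tested.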

How the results depend on the processing

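The counts of called members depended on the test and on single libraries. At day 3 against control, 4 members were called as reported, 9 with DESeq2, 10 from the compared groups alone, 9 without the 3 libraries singled out by earlier results, and 1 to 2 when a library was left out. At day 7 the reported 6 became 3 without a filter on low counts, 12 with DESeq2, 14 with only the compared groups, 3 with a replicate block and 0 to 6 when a library was left out. At day 14 the reported 0 became 9 with DESeq2, 1 with limma voom, 7 without the 3 libraries, 2 with marker scores as covariates and 0 to 1 when a library was left out. Between the Rag2 groups DESeq2 called 1. Other scalings left 4 calls at day 3 and 5 to 8 at day 7, and moved the median over all genes by less than 0.1 on the log2 scale. Counts of the nuclear copies added to their partners, an alternative chosen after seeing the data, gave 4, 7 and 0 calls. The share of all genes called under each setting is not given here, so the counts show only how the calls depended on processing. In all cases the cause was not tested.

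Equal replicate numbers did not pair the libraries. Of 24 pairs in the WT set 13 correlated over 0.1 (range -0.596 to 0.569), and 7 were best with their own number. In the Rag2 set 1 of 3 pairs did (range -0.0885 to 0.134). With the replicate block, 4 members were called at day 3, 3 at day 7 and 0 in every other comparison.

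The sign changed in some settings for genes that were not called. When a library was left out, the log2 fold change at day 3 ran from -0.304 to 0.064 for mt-Atp8, from -0.074 to 0.604 for mt-Nd4l and from -0.129 to 0.019 for mt-Nd5, and at day 7 from -0.447 to 0.232 for mt-Atp8, from -0.45 to 0.187 for mt-Nd4l and from -0.094 to 0.079 for mt-Nd5. Between the Rag2 groups it ran from -0.101 to 0.437 for mt-Rnr2, from -0.607 to 0.173 for mt-Co3, from -0.013 to 0.385 for mt-Cytb and from -0.072 to 0.351 for mt-Tp. With covariates it was 0.449 for mt-Atp8 at day 3, and at day 7 0.0405 for mt-Atp8, 0.164 for mt-Nd4l and 0.0601 for mt-Nd5, and 0.16 for mt-Nd4l at day 14. Without a filter it was 0.0038 for mt-Nd4l and 0.0041 for mt-Nd5 at day 7. With the copies added it was 0.0017 for mt-Nd4l at day 7, and without the 3 libraries 0.022 for mt-Nd5 at day 3. Depth limits genes with few counts, such as mt-Atp8 and most tRNAs.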
